A study of Mus musculus with 8 samples.

Results

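The replication-dependent histone genes were taken as the array's non-control probes whose gene name begins with Hist1h, Hist2h, Hist3h or Hist4h, with 1 probe per gene, the one with the highest mean log2 processed signal over the 8 arrays. This gave 49 genes, read by 54 probes, out of 36161 gene names and 55681 probes on the array. By the letters that follow, 6 were of class H1, 14 of H2a, 12 of H2b, 8 of H3 and 9 of H4. The arrays were single-colour Agilent arrays of plasmacytoid dendritic cells (pDC), the dendritic cells that make type I interferon when nucleic acids reach their endosomal Toll-like receptors. The cells were grown with mFlt3-L (Flt3 ligand) from bone marrow precursors of female BALB/c mice, purified by magnetic and flow cytometric sorting, and separated into 4 Sca-1- and 4 Sca-1+ samples. No genotype, knockout or stimulus is named for either group, and both groups share the strain, the sex and the culture. The series asks whether Sca-1, the Ly6a product, marks stages of pDC development that differ in their response through TLR9.

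Histones are the proteins around which DNA is wound. H2a, H2b, H3 and H4 form the core of the nucleosome, and H1 binds the linker DNA between nucleosomes. The genes described here are made mainly in S phase, when new DNA has to be packaged, and most lie in clusters and lack introns. Their messages are unusual in ending with a conserved stem-loop and not with a poly(A) tail. The stem-loop is bound by Slbp, and the message is cut just after it by a complex with U7 RNA. Some members, among them Hist1h1c and Hist2h2be, are known from other systems to give polyadenylated messages as well. The labels name polyA RNA as the material, and what that means for messages without a tail was not tested.

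Of the 49 genes, 44 had a probe that passed the detection limit (well above background on 4 or more arrays) and were tested among 19834 genes. The other 5 were Hist1h1d and Hist3h2bb-ps (0 arrays), Hist1h2bp (1 array), Hist1h2ac (2 arrays) and Hist1h2ae (3 arrays, all of them Sca-1-). Probes of 39 of the 44 were above background on all 8 arrays. Their median processed signal over the arrays ran from 14.4 intensity units for Hist1h2bq to 103000 for Hist1h2ah. In mm9, 36 of the 49 lie in cluster 1 on chromosome 13, 9 in cluster 2 on chromosome 3, 3 in cluster 3 on chromosome 11, and 1, Hist4h4, on chromosome 6.

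A level below is the log2 processed signal minus the array's own 75th percentile, a difference is Sca-1+ minus Sca-1-, and lists of 4 values are in the order of replicates 1 to 4. Before scaling, that percentile ran from 152 to 434, and between 45.9% and 54.9% of spots were well above background. Ly6a checked the labels: its level was 2.21 to 3.15 in the Sca-1- samples and 7.17 to 7.82 in the Sca-1+ samples (adjusted p = 0.000626, limma). Arrays with the same replicate number lay on the same slide, with Sca-1- at position 1 and Sca-1+ at position 2, so position and group cannot be told apart. The slide of replicate 4 was extracted with another scanner-software protocol and a later design file, and both of its arrays stood apart from the rest in these genes. Values are therefore given for each replicate number, and counts also without replicate 4. In sorted bulk samples, fewer cells that make a message and less message per cell cannot be told apart. Whether the replicates are separate cultures or animals is not in the labels, and the tests then speak only of the spread among these arrays, which may be technical.

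Most replication-dependent histone genes had less signal in Sca-1+ than in Sca-1- pDC, and members of all 5 classes were called lower once slides were taken into account. Of the 44 tested genes, 38 had a negative difference, as did 8853 of all 19834 tested genes. The median of the 44 was -1.15 on the log2 scale, against 0.03 over all tested genes. The median was -0.90, -1.72, -1.24 and -0.54 within replicates 1 to 4. In 33 of the 44 the Sca-1+ sample was lower within each of the 4 replicate numbers, as it was in 17.8% of all tested genes. In 3, Hist1h1c, Hist2h2aa1 and Hist1h2bg, it was higher in each, a share that was not counted over all tested genes. For 29 of the 44 the mean difference was below -1, a share that was not counted over all tested genes.

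The tests of this difference turned on whether the slide entered the model. With the replicate number as a block, limma called 25 of the 44 genes lower (56.8%) and 0 higher, against 4.12% of all tested genes lower, 2.1% higher and 6.22% in either direction (adjusted p under 0.05). Among the 25 is Hist3h2ba, which passed the detection limit through its Sca-1- arrays alone. In the unpaired fit, 0 of the 44 were called in either direction, where 1.58% of all tested genes were called lower, 0.126% higher and 1.71% in all. At an unadjusted p under 0.05 the unpaired fit had 11 members lower and 2 higher, with 8.97% of all tested genes in either direction. Without replicate 4 the unpaired fit called 25 members lower and 0 higher, against 3.11% of all tested genes lower and 1.34% higher, and 20 of these 25 were among the 25 called with the block. With the block, leaving out both samples of replicate 1, 2, 3 or 4 left 8, 14, 4 and 24 members called lower. Over all 4 replicates the groups did not overlap for 1 lower gene, Hist1h3g, and 1 higher gene, Hist2h2aa1, while 5.03% of all tested genes were lower without overlap. The share of all tested genes higher without overlap was not counted, so the value of Hist2h2aa1 is only a description. Among replicates 1 to 3 alone, 34 of the 44 had every Sca-1+ sample below every Sca-1- sample, against 13.3% of all tested genes.

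**Figure D1:**
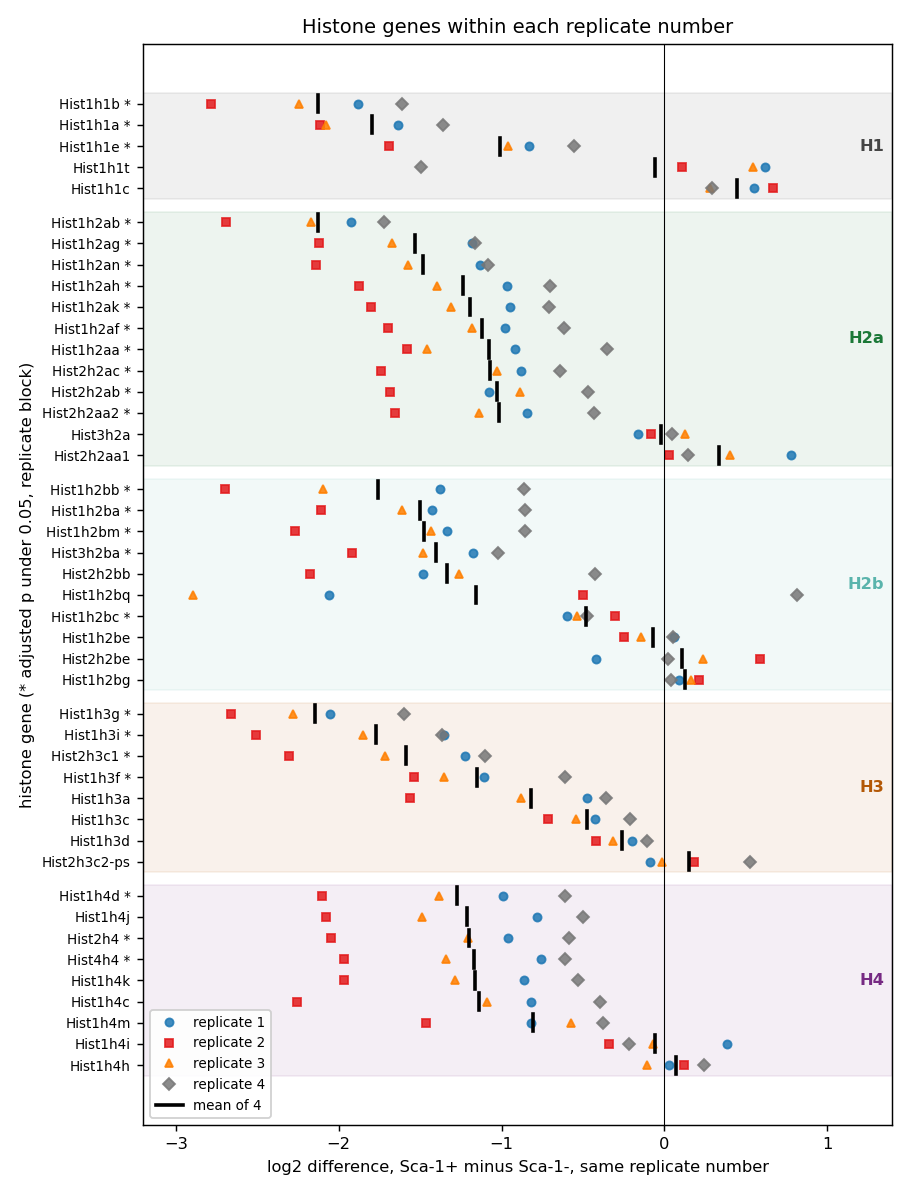
Log2 difference (Sca-1+ minus Sca-1-) of each of the 44 tested histone genes, with 1 point for each replicate number, a bar at the mean of the 4, and genes grouped by class. Points lie left of 0 for most genes, replicate 2 is farthest left in 35 genes and replicate 4 is farthest right in 34.

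The replicates kept much the same order from gene to gene. Replicate 2 had the lowest difference in 35 of the 44 genes, and replicate 4 the highest (least negative or most positive) in 34. The whole order, replicate 2 below 3, 3 below 1 and 1 below 4, was found in 28. Over the 8 arrays, the median Pearson correlation between pairs of members was 0.92, and 0.93 after the group means were taken out. These correlations share arrays and scaling and are given as a description.

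Of the 5 tested H1 genes, 3 fell in the fit with the replicate block and the class median was -1.01. Hist1h1b (H1f5), at chr13:21871923-21871982 (mm9), had levels of 5.23, 5.48, 4.35 and 2.78 in the Sca-1- samples and 3.35, 2.70, 2.11 and 1.17 in the Sca-1+ samples. The groups did not overlap in replicates 1 to 3, and the Sca-1- sample of replicate 4 lay among the Sca-1+ values. Hist1h1b fell by 1.88, 2.79, 2.24 and 1.61 within the replicates, 4.37-fold on average (log2 difference -2.13 ± 0.20 SE, adjusted p = 0.00462 with the block and 0.259 without). Hist1h1a (H1f1) fell 3.48-fold (-1.80 ± 0.15 SE, adjusted p = 0.00331 with the block), and Hist1h1e (H1f4) fell 2.01-fold (-1.01 ± 0.19 SE, adjusted p = 0.0415).

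Hist1h1c (H1f2), a linker histone also found in cells that have stopped dividing, had a difference of the opposite sign. Its levels were 2.12, 2.12, 2.76 and 2.40 in the Sca-1- samples and 2.67, 2.79, 3.04 and 2.70 in the Sca-1+ samples. Sca-1+ was the higher sample within each replicate, while the lowest Sca-1+ level lay under the highest Sca-1- level. The difference was 0.45 ± 0.10 SE with an adjusted p of 0.0601 with the block, and 0.476 without it. Hist1h1t (H1f6), the testis linker histone, was dim, and its differences of 0.62, 0.11, 0.54 and -1.49 within replicates 1 to 4 had no common sign.

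H2a held the most called genes. With the block, 10 of its 12 tested genes fell, and the class median was -1.10. The largest fall was in Hist1h2ab (H2ac4, chr13:23843392-23843451, mm9), with levels of 8.27, 8.50, 7.64 and 5.46 in the Sca-1- samples and 6.35, 5.81, 5.47 and 3.73 in the Sca-1+ samples. The level of Sca-1- replicate 4 was below those of Sca-1+ replicates 1, 2 and 3, so the groups overlapped through that slide alone. Hist1h2ab fell 4.37-fold (-2.13 ± 0.17 SE, adjusted p = 0.00274 with the block and 0.381 without). Hist1h2ag and Hist1h2an followed at -1.53 and -1.48, and the other 7 called genes lay between -1.23 (Hist1h2ah) and -1.02 (Hist2h2aa2). Hist1h2aa (H2ac1), best known from the testis, was among them at -1.08 (adjusted p = 0.0489).

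Several H2a probes can hardly be told apart by sequence. Of 946 pairs of tested members' probes, compared without gaps and only at small offsets, 10 matched at 48 or more of 60 bases. These 10 pairs joined 5 H2a genes: Hist1h2af, Hist1h2ah, Hist1h2ak, Hist1h2an and Hist2h2aa2. The probes of all 5 cover the end of the coding sequence up to the stop codon, and signal of one such gene may bind the probe of another. Those of 4 are shown, with a capital at each base that differs from Hist1h2af:
Hist1h2af: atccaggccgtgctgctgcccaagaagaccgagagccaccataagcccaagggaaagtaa
Hist1h2an: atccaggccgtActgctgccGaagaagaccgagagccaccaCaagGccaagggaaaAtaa
Hist1h2ak: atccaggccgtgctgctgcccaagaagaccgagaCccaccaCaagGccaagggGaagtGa
Hist2h2aa2: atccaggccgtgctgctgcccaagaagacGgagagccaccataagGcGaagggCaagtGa
Each of the other 3 differs from Hist1h2af at 5 bases. Their differences of -1.12, -1.48, -1.20 and -1.02, in the order printed, may therefore not be separate measurements of 4 genes. The probes of Hist1h2ag and Hist2h2ac hold much of the same stretch, although the comparison did not join them. The same limit holds for their differences of -1.53 and -1.07. It also holds for Hist1h2ah, at -1.23, which the comparison joined but which is not shown. Cross-binding was not measured.

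The 2 H2a genes not called were Hist3h2a and Hist2h2aa1. Hist3h2a (H2aw), from the small cluster on chromosome 11, had differences of -0.16, -0.09, 0.12 and 0.05 within replicates 1 to 4. Its mean was -0.02, and the 95% interval with the block ran from -0.23 to 0.19. Hist2h2aa1 (H2ac18, chr3:96049949-96050008, mm9) had levels of 4.42, 4.77, 4.55 and 4.73 in the Sca-1- samples and 5.19, 4.80, 4.96 and 4.88 in the Sca-1+ samples. All Sca-1+ samples lay above all Sca-1- samples, by a small margin. The difference of 0.34 ± 0.14 SE had an adjusted p of 0.215 with the block and 0.533 without.

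Of the 10 tested H2b genes, 5 fell with the block, with a class median of -1.25. Hist1h2bm (H2bc14, chr13:21814057-21814116, mm9) had levels of 4.75, 5.09, 4.23 and 1.75 in the Sca-1- samples and 3.42, 2.83, 2.79 and 0.89 in the Sca-1+ samples. The slide of replicate 4 was the lowest in both groups. Hist1h2bm fell 2.78-fold (-1.47 ± 0.23 SE, adjusted p = 0.025 with the block and 0.736 without). Hist1h2bb, a dim probe above background on 4 Sca-1- and 2 Sca-1+ arrays, fell by 1.76, and Hist1h2ba (H2bc1), the testis H2b, fell by 1.50. Hist3h2ba was well above background on all 4 Sca-1- arrays and 0 Sca-1+ arrays, so it passed the detection limit through the Sca-1- group alone. Its fall was 2.19-fold when its Sca-1+ levels were raised to the lowest signal of any probe above background on each array. The limit for its own spot may be higher. Its adjusted p in limma was 0.00996 with the block and 0.527 without. These dim probes depended on the background handling: with normexp Hist1h2bb was at -0.58 (adjusted p = 0.0227 with the block), and Hist3h2ba was at -0.27 and no longer called (adjusted p = 0.111 with the block). The 2.19-fold value therefore holds only for the main background handling.

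Hist1h2bc fell by a smaller amount, and by much the same in every replicate. Its difference was -0.60, -0.31, -0.54 and -0.48 within replicates 1 to 4, 1.39-fold on average (-0.48 ± 0.08 SE, adjusted p = 0.0343 with the block). Hist2h2bb, at -1.34, had an adjusted p of 0.0505 with the block. Hist1h2bq ran from -2.89 in replicate 3 to 0.81 in replicate 4 on a probe above background on 4 arrays, and no call was made. Hist1h2be, Hist2h2be and Hist1h2bg had mean differences of -0.07, 0.11 and 0.13. Their 95% intervals with the block ran from -0.29 to 0.15, from -0.31 to 0.53 and from -0.06 to 0.31.

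In class H3, 4 of 8 tested genes fell with the block, and the class median was -0.99. Hist1h3g (H3c8, chr13:23627719-23627778, mm9) had levels of 0.02, 0.40, -0.10 and -1.70 in the Sca-1- samples and -2.03, -2.26, -2.38 and -3.30 in the Sca-1+ samples. Even the lowest Sca-1- sample lay above the highest Sca-1+ sample, although both samples of replicate 4 were the lowest of their groups. Hist1h3g fell 4.43-fold (-2.15 ± 0.18 SE, adjusted p = 0.00316 with the block), and its adjusted p of 0.0782 in the unpaired fit was the smallest of any member. With normexp background correction in place of the program's own, its difference was -1.22 (adjusted p = 0.000108 with the block). Hist1h3i, Hist2h3c1 and Hist1h3f fell by 1.77, 1.59 and 1.15.

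Hist1h3d (H3c4), whose probe had the highest signal of the class, differed little. Its levels were 7.21, 7.25, 7.11 and 6.38 in the Sca-1- samples and 7.01, 6.83, 6.80 and 6.28 in the Sca-1+ samples. Sca-1+ was lower in each replicate, by 0.11 to 0.42, with a mean of -0.26 and an adjusted p of 0.139 with the block. Hist1h3a at -0.82 and Hist1h3c at -0.47 were not called either. Hist2h3c2-ps, a dim probe, was at 0.15. The probes of Hist1h3c and Hist1h3f share a stretch of coding sequence, so their values may not be separate measurements. Whether other H3 messages bind the probe of Hist1h3d was not tested.

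The H4 genes encode almost the same protein. Differences of 6 of its 9 tested genes lay between -1.27 and -1.14, and the class median was -1.16, but the replicates spread widely and 3 genes, Hist1h4d, Hist2h4 and Hist4h4, passed the test with the block. Hist1h4d (H4c4, chr13:23673515-23673574, mm9) had levels of 7.16, 7.37, 6.80 and 4.76 in the Sca-1- samples and 6.16, 5.26, 5.42 and 4.15 in the Sca-1+ samples. Within the slides the fall was 0.99, 2.10, 1.38 and 0.61, and its adjusted p was 0.0427 with the block and 0.66 without. Hist1h4k, Hist1h4j and Hist1h4c were close behind, with adjusted p of 0.051, 0.0608 and 0.0894 with the block. The probes of Hist1h4d, Hist1h4j and Hist1h4c cover much of the same stretch of coding sequence, so their values may not be separate measurements. Hist1h4m lay at -0.81 (adjusted p = 0.0663).

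Hist1h4h, and Hist1h4i on the probe used, stood outside that range. Hist1h4h had differences of 0.03, 0.12, -0.11 and 0.24 within replicates 1 to 4, a mean of 0.07 and a 95% interval with the block from -0.15 to 0.29. Hist1h4i was at -0.06 on the probe used, with an interval from -0.40 to 0.27. The value of Hist1h4i depended on the probe: the one used lies at chr13:22132679-22132738 (mm9), and another 460 bases away, on the side of the gene's start, gave -1.09, -1.47, -0.85 and -0.40 within replicates 1 to 4, with a mean of -0.95. A probe that carries the name Hist1h4i only in the files of replicate 4 gave a mean of -0.56. Whether any of these probes reads Hist1h4i alone was not tested, so -0.06 and its interval describe the probe used and not the gene. The start-side probe covers the first codons of the coding sequence and is shown with its start codon in capitals:
Hist1h4i, start-side probe: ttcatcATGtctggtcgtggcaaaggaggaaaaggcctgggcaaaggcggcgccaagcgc

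The other genes with more than 1 probe gave values on the same side of 0 where the probe was detected. The second probe of Hist1h2ak gave -1.89 where the one used gave -1.20, and that of Hist1h4k gave -1.26 against -1.16. This second Hist1h4k probe covers much of the stretch of the Hist1h4c, Hist1h4j and Hist1h4d probes. It may therefore not read Hist1h4k alone. The second probe of Hist2h4, above background on 5 arrays, gave -0.51 against -1.20. The second probe of Hist4h4 lies 1576 bases from the one used and was above background on 0 arrays, and with the mean of both probes Hist4h4 was at -0.44.

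Both arrays of replicate 4 had low histone signal. In 38 of the 44 genes, the replicate 4 sample was below each of replicates 1 to 3 in both groups, as it was in 36.8% of all tested genes. The median shift, replicate 4 minus the mean of replicates 1 to 3, was -1.96 in Sca-1- and -1.31 in Sca-1+, against -0.07 and -0.05 over all tested genes. All 25 genes called with the block were lower in replicate 4 than that mean in both groups, by 0.62 to 2.94 in Sca-1- and by 0.62 to 2.14 in Sca-1+. Over the 44 genes, the shift went with the difference between groups in replicates 1 to 3 (Spearman's rho 0.76 for the shift in Sca-1- and 0.59 in Sca-1+), a description in which both sides use the arrays of replicates 1 to 3.

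Members whose mean difference was close to 0 or above it differed among themselves in replicate 4. Hist2h2aa1 and Hist1h1c moved little in replicate 4, by 0.15 and 0.06 in Sca-1- and by -0.10 and -0.14 in Sca-1+. Hist2h2be was higher there, by 1.41 and 1.30. Hist1h4h and Hist1h4i, by contrast, were lower in replicate 4 in both groups, by 1.39 and 1.26 in Sca-1- and by 1.15 and 1.46 in Sca-1+. For Hist1h4i this is the probe used, and its other probes had mean differences of -0.95 and -0.56, not close to 0. Without Sca-1- replicate 4 alone, the unpaired differences of Hist1h1a, Hist1h2ab, Hist2h2ab, Hist1h2bb, Hist1h2ba, Hist1h2bm, Hist2h3c1, Hist1h4d and Hist2h4 were -2.43, -2.80, -1.72, -2.48, -2.15, -2.21, -2.27, -1.86 and -1.79, each farther from 0 than over all samples. This has to follow when the lowest Sca-1- sample is left out and its low slide partner is kept. With both samples of that slide left out, the same genes were at -1.94, -2.26, -1.22, -2.06, -1.72, -1.68, -1.75, -1.49 and -1.40. With this slide, the median SD of a member was 1.02 in Sca-1- and 0.74 in Sca-1+ over 4 samples, and without it 0.34 and 0.35. Over all tested genes the same SDs were 0.32 and 0.31, and 0.19 and 0.15.

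**Figure D2:**
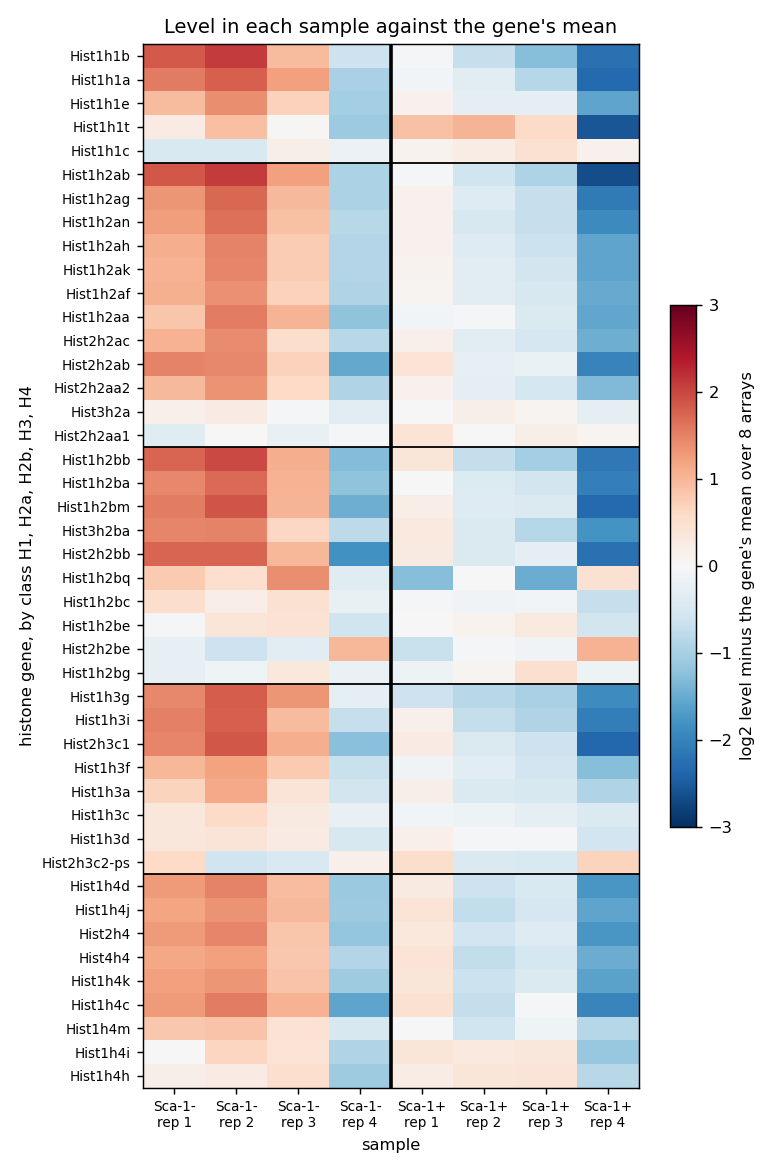
Level of each tested histone gene in each of the 8 samples, as the log2 difference from that gene's mean over the arrays (red above, blue below), with classes separated by lines. Sca-1- replicates 1 to 3 are red for most genes and both replicate 4 samples are blue. Some genes differ from that pattern, among them Hist1h1c, Hist3h2a, Hist2h2aa1, Hist2h2be, Hist1h2bg, Hist1h2bq and Hist2h3c2-ps.

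Some probes read the very end of the message. The full stem-loop, searched by its conserved bases on both strands, is in 0.0287% of all probes and in the probes of 6 tested members. They are shown with the stem-loop in capitals and the few bases around it, since it marks where the processed message ends:
Hist1h3g: taaaGGCTCTTCTTAGAGCCaccc
Hist1h3i: aaaaGGCTCTTTTCAGAGCCccct
Hist1h3a: caaaGGCTCTTTTCAGAGCCaca
Hist2h2bb: aaaaGGCTCTTTTCAGAGCCactt
Hist1h4m: taaaGGCCCTTTTCAGGGCCatcc
Hist2h2aa1: aaaaGGCTCTTTTCAGAGCCaccc
In Hist1h3g, Hist1h3i, Hist1h3a, Hist2h2bb and Hist1h4m the probe runs on for 5, 5, 3, 6 and 6 bases after the stem-loop, so almost all of it lies before the usual end. Their differences were -2.15, -1.77, -0.82, -1.34 and -0.81, 2 of them called with the block. In Hist2h2aa1 the stem-loop begins at base 7 of the probe and 38 bases follow it, and the difference was 0.34. The probe of Hist1h2ab, at -2.13, ends with the first 11 bases of a stem-loop. That of Hist1h2ae, which was not tested, begins with the last 12 bases of one and runs on beyond it.

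Base composition varied more among the probes without a stem-loop. The 23 with at least 50% G and C had a median difference of -1.20, with 16 called lower with the block, and a median replicate 4 shift of -2.21 in Sca-1- and -1.37 in Sca-1+. The 15 with less than 50% had a median of -0.48, with 7 called, and shifts of -1.25 and -0.69. Over all tested genes the share called lower with the block ran the other way, at 2.74% with at least 50% G and C and 4.48% with less. Over the 44 members, Spearman's rho between G and C content and the difference was -0.35, whereas over all tested genes it was 0.09, and all genes with at least 50% had a median difference of 0.07. Among all genes, the median replicate 4 shift with at least 50% G and C was -0.31 in Sca-1- and -0.33 in Sca-1+, and with less it was -0.01 and 0.01. The split by composition was chosen after the values were seen, and its part in the differences was not tested.

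**Figure D3:**
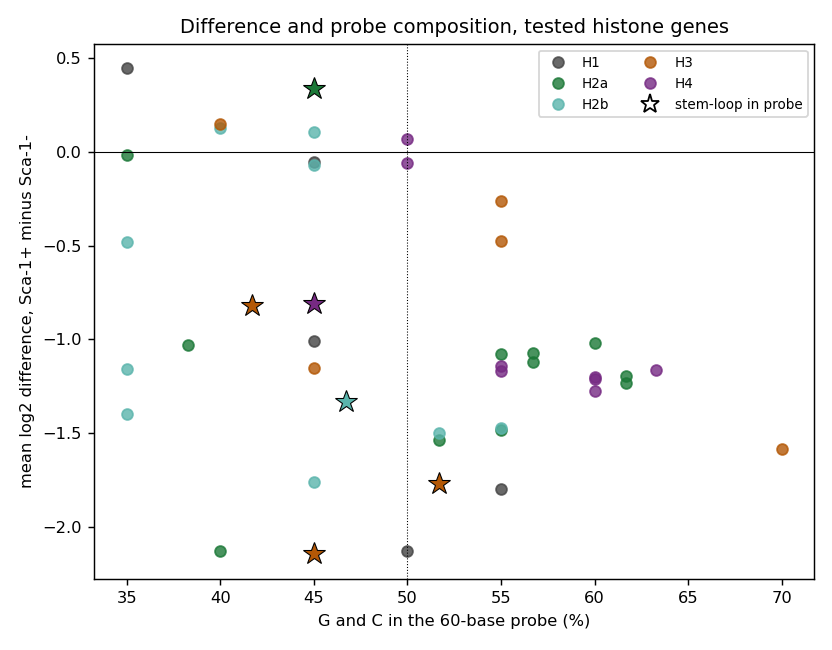
Mean log2 difference (Sca-1+ minus Sca-1-) against the share of G and C in the 60-base probe for the 44 tested histone genes, coloured by class, with stars for the 6 probes that hold the stem-loop. All but 1 of the stars lie below 0, and the values near 0 come mostly from probes with 50% or less.

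Promoters of the histone genes share short motifs that many other promoters lack. RefSeq windows around the start, most of each before it (GRCm38.p6), were found for 43 of the 49 members and searched on both strands. TATAAA was in 60.5% of them and in 13.6% of all 32851 promoters, and CCAAT in 86.0% against 37.4%. The octamer ATTTGCAT was in 30.2% against 1.74%: it was in 7 of 14 H2a and 6 of 9 H2b promoters, and in 0 of 6 H1, 0 of 6 H3 and 0 of 8 H4 promoters. The median differences of tested members with and without each motif were -1.20 and -1.12 for TATAAA, -1.16 and -0.99 for CCAAT, and -1.24 and -1.15 for the octamer.

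An H2b gene with a lower probe signal and another without are shown with the 120 bases before the start, because both hold the octamer. Motifs on either strand are in capitals. The probes of these genes differ in sequence and may read different parts of the message, so their differences may not compare the same form of it. Hist1h2bm fell by 1.47 and Hist1h2bg was at 0.13:
Hist1h2bm, chr13:21721924-21722043, GRCm38.p6, plus strand: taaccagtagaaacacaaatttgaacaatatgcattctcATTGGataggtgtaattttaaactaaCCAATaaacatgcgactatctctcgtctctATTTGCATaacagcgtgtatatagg
Hist1h2bg, chr13:23571280-23571399, GRCm38.p6, plus strand: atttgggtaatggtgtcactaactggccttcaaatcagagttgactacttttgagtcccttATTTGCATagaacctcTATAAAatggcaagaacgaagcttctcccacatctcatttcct
A match here is only of letters, and whether a factor binds was not measured.

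The other S-phase genes measured had less spread between replicates. Of 39 tested S-phase genes (replication licensing, polymerases and nucleotide supply), all had a negative difference, and 23 were called lower in the unpaired fit and 30 with the block. Their median was -1.30, with -1.33, -1.34, -1.33 and -1.02 within replicates 1 to 4. The list's median shift in replicate 4 was -0.39 in Sca-1- and 0.04 in Sca-1+, where that of the histone genes was -1.96 and -1.31. Cdc6, which loads the replicative helicase, had levels of -0.13, -0.14, -0.16 and -0.61 in the Sca-1- samples and -2.03, -2.66, -2.91 and -2.31 in the Sca-1+ samples, and fell 4.65-fold (adjusted p = 0.00504, unpaired), with a difference of -2.22 that became -1.28 with normexp. Mki67, a proliferation marker, fell 4.05-fold (adjusted p = 0.00812).

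Histone variants can be made outside S phase, and most of their messages have poly(A) tails. Of 12 tested, 3 were called lower in the unpaired fit and 6 with the block, with a median of -0.43. The 3 were Cenpa, the centromeric H3, at -1.97, H2afx, the variant phosphorylated at DNA breaks, whose message is known in both a stem-loop and a polyadenylated form, at -1.52, and H2afz at -0.93 (adjusted p = 0.00504, 0.0109 and 0.0205). Called with the block alone were H2afj, H2afv and H2afy, at -1.07, -0.77 and -0.58 (adjusted p = 0.0374, 0.0289 and 0.0343 in limma with the block). H2afj was also lower in replicate 4, by 1.72 in Sca-1- and by 1.01 in Sca-1+. Whether its probe also binds messages of the H2a members was not tested. H3f3a and H3f3b, which encode the same H3 variant, were at -0.25 and 0.05 (adjusted p = 0.71 and 1).

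Among 27 tested genes for chaperones and import of histones, 5 were called lower in the unpaired fit and 8 with the block, with a median of -0.27. Asf1b and both large subunits of the CAF-1 complex, Chaf1a and Chaf1b, which place new H3 and H4 on replicated DNA, fell by 1.95, 1.62 and 1.16. Nasp, an H3, H4 and linker histone chaperone, and Tonsl fell by 0.81 and 1.00. The genes for transcription and processing of histone messages moved less: of 27 tested, 1 was called lower in the unpaired fit, Ccne1 at -1.93 (adjusted p = 0.0291), and 4 with the block, with a median of -0.16. Slbp, the stem-loop binding protein, was at -0.32 (adjusted p = 0.665 and, with the block, 0.173). Zfp473 and Lsm11, both parts of the U7-dependent cutting machinery, were at -1.32 and -0.97 and were called with the block (adjusted p = 0.00996 and 0.0442), and Zfp473 was at -0.54 with normexp.

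**Figure D4:**
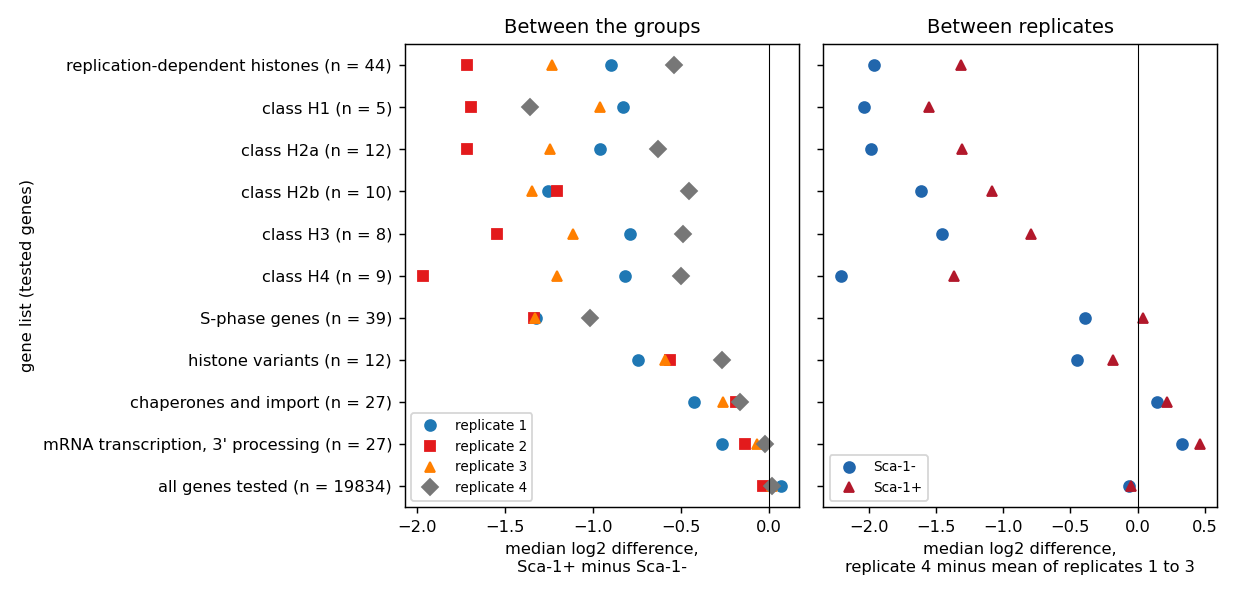
Median log2 difference between Sca-1+ and Sca-1- within each replicate number (left) and between replicate 4 and the mean of replicates 1 to 3 within each group (right) for the histone genes, their classes and related lists, with the number of tested genes. The S-phase genes lie between -1.34 and -1.02 in all 4 replicates, and the histone genes between -1.72 and -0.54.

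Markers of pDC were present in both groups: all 15 were tested, with a summed level (log2 of the summed scaled signals) of 11.01 to 11.49 in Sca-1- and 11.23 to 11.57 in Sca-1+ samples and a median difference of 0.25, and 3 were called higher with the block. Among other cell types, 11 of 13 stem and progenitor markers were tested, with summed levels of 5.13 to 5.85 in Sca-1- and 3.88 to 4.92 in Sca-1+. Of the conventional dendritic cell markers, 6 of 10 were tested, with 0 called in the unpaired fit, 1 lower and 3 higher with the block, and summed levels of 5.77 to 6.34 and 5.98 to 6.41. Of the stem and progenitor markers, 1 was called lower, Cd93 at -1.98, and 3 with the block. Of 9 T and NK cell markers, 5 were tested and Thy1 was called lower at -1.80, while 4 were not above background on any array. Of 9 B cell markers 3 were tested and of 7 erythroid markers 1, none of them called. Of 11 granulocyte, basophil and macrophage markers, 8 were tested and none called, and they did not shift alike in replicate 4. The basophil genes Mcpt8, Prss34 and Fcer1a shifted by -6.41, -4.28 and -3.02 in Sca-1- and by -6.53, -4.86 and -5.11 in Sca-1+. The neutrophil genes S100a8, S100a9 and Camp shifted by 0.08, 0.31 and -0.59 in Sca-1- and by -2.10, -1.24 and -1.15 in Sca-1+, Cd14 by -0.11 and -0.29, and Lyz2 by 3.58 and 0.41. That list's median shift in replicate 4 was -0.35 in Sca-1- and -1.67 in Sca-1+, with a summed level of 3.08 to 4.85 and 2.22 to 4.72. Whether these cells take part in the histone differences was not tested.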

How the data were processed

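The authors deposited 1 scanner file per array, in which Agilent Feature Extraction 10.7.3.1 gives a linear, background-corrected intensity for each spot, per the file headers. Probe positions are in mm 9 (build mm9), per the file headers. Log2 values that the authors deposited in a joint table served as an alternative, and equal quartiles in all columns (median 3.9) show a quantile normalization. PolyA RNA was amplified and labelled with Cy3, per the labels' protocols.

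Of 59305 non-control spots on each array, 105 to 162 outlier spots were left out, and none was saturated (0). Repeat spots were averaged on the log2 scale and the array's 75th percentile was subtracted. A gene was tested if well above background on at least 4 arrays. Sca-1+ and Sca-1- samples were tested against each other in limma 3.58.1 under R 4.3.3 (two-sided, Benjamini-Hochberg over all 19834 tested genes, threshold 0.05), unpaired as the main fit and with the replicate number as a block as the alternative. The fits were tested on simulated data. Same-numbered samples shared a slide, per the file headers, and their deviations from the group means correlated at 0.44, 0.43, 0.64 and 0.89 for replicates 1 to 4, so the numbers were taken as pairs. Among replicates 1 to 3, differently numbered samples correlated at 0.12 to 0.54. Precision is limited by the number of arrays and by the spread between slides.

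The members, lists and alternatives were chosen with earlier results of these data known. Named genes are Ly6a, Mki67, every member called in either fit, the members of each class with the highest difference, the lowest difference and the highest signal, and up to 5 genes of every other list with the smallest p. Other members and H2afj were named after their values were seen. Names are those in the files of replicates 1 to 3, since the files of replicate 4 use a later design. Current symbols came through RefSeq accession for 48 members and through symbol for 1. Promoter windows are RefSeq's (GRCm38.p6). Figures used Python 3.11.15 and matplotlib 3.10.9.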

Additional observations from a re-analysis of the deposited data

Results flagged for a closer look

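Of 108 groups of 4 samples checked among the named genes, 8 held a sample whose gap to the nearest other divided by the group's whole range passed Dixon's critical value, and chance flags about 1 in 20. In 6 of the 8 the sample was that of replicate 4. Hist1h2bc in Sca-1+ replicate 4 had a ratio of 0.917, at 0.02 against 0.60 to 0.66 in the others. Hist1h1t in Sca-1+ replicate 4 had 0.876, at -5.47 against -2.32 to -1.88. Hist1h4h in Sca-1+ replicate 4 had 0.851, at -0.62 against 0.42 to 0.60. Hist1h3d in Sca-1- replicate 4 had 0.844, at 6.38 against 7.11 to 7.25. Cdc6 and Mif4gd in Sca-1- replicate 4 had 0.931 and 0.929, at -0.61 and 3.13. The others were Slbp in Sca-1+ replicate 1, with 0.857 at -0.05, and H2afz in Sca-1+ replicate 3, with 0.864 at 6.11. The causes were not tested.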

How the results depend on the processing

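The unpaired count of 0 members called lower became 25 with the replicate block, 1 (Hist1h3g) with quantile normalization and 1 with the authors' values, and it ran from 0 to 25 when samples or replicate numbers were left out. Without Sca-1- replicate 4 alone it was 3. The unpaired count of all genes called, 339, became 1234 with the replicate block and 182 with no filter on dim probes, and ran from 1 to 882 when samples were left out. With the replicate block, the 25 members called lower became 4 with no filter, and 8, 14 and 4 without replicates 1, 2 and 3. The 1234 genes called with the block became 2128 with normexp, 312 with no filter, and 431, 550 and 292 without replicates 1, 2 and 3. With the block, 1 member, Hist1h1c, was called higher under normexp and 1, also Hist1h1c, among probes detected on all 8 arrays. Of the 25 members, 24 were shared by each of the blocked fits with normexp, quantile normalization and the authors' values. Those blocked alternatives were chosen after seeing the data.

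When samples or replicate numbers were left out, the median of the tested members ran from -1.66 to -0.81, and the class medians from -1.52 to -0.65 for H1, -1.67 to -0.78 for H2a, -1.68 to -0.88 for H2b, -1.35 to -0.76 for H3 and -1.71 to -0.82 for H4. The class H2b median of -1.25 became -0.34 with normexp, -0.82 with no filter and -0.48 among probes detected on all 8 arrays, where that of H1 became -1.40. Members with means near 0 changed sign. Hist1h1t ran from -0.43 to 0.79 in the leave-outs and was at 0.083 with normexp, Hist1h2bg ran from -0.013 to 0.25, Hist2h3c2-ps from -0.05 to 0.38 and Hist1h4h from -0.28 to 0.36. The causes were not tested.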
